A study of Rattus norvegicus with 2 samples.

Results

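The genes described here are 9 collagen genes of the rat (Col1a1, Col1a2, Col3a1, Col5a1, Col5a2, Col6a2, Col8a1, Col11a1 and Col12a1), of 22154 genes listed in the tables of the 2 libraries. They were taken from a fixed list of names and were followed across fibroblasts, osteoblasts, mural cells and endothelial cells. The material was cells dissociated from the zygomatic maxillary suture, where fibrous tissue joins cheek bone and upper jaw, of rats aged 4 weeks. In the distraction library the suture had been stretched for 7 days by a nickel-titanium spring (wire of 0.4 mm, force at the start 20 g). In the sham library the bone was drilled and no spring was placed. Both groups had the same anaesthesia, skin incision and separation of chewing muscle. Each group has 1 library, and the sources used here give neither strain, sex nor the number of animals. No difference below therefore has a replicate check, and no p-value is given.

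Collagens are the main structural proteins of connective tissue and bone. Each molecule is a triple helix of alpha chains, and each gene encodes 1 kind of chain. Type I collagen (Col1a1, Col1a2) is the bulk fibril protein of bone, and type III (Col3a1) joins it in the fibrils of soft, elastic tissue. Types V and XI (Col5a1, Col5a2, Col11a1) sit inside fibrils and set their start and width. Type VI (Col6a2) forms beaded filaments around cells, type XII (Col12a1) lies on fibril surfaces, and type VIII (Col8a1) is a short-chain collagen of vessels and basement membranes. Osteoblasts, which lay down bone, and fibroblasts, which fill the suture, are known collagen producers, while blood cells are not known to make fibrillar collagen.

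Promoters of 5 of the 9 genes (Col1a2, Col5a1, Col5a2, Col8a1 and Col11a1) were found in RefSeq's promoter table for the rat assembly GRCr8. The 250 bases before the listed start of 4 genes are shown, 5′ to 3′ along the gene. Col1a2 and Col11a1 are shown because both were higher in osteoblasts than in fibroblasts in both libraries. Col5a1 and Col5a2 are shown because no difference between those cells was called for them at the settings used in the text. Capitals mark letter strings searched on both strands. They are the CCAAT string (read ATTGG from the reverse strand), the string TATAAA, and the string GGGCGG (read CCGCCC from the reverse strand), and none overlaps another here.
Col1a2, chr4:33518307-33518556, plus strand: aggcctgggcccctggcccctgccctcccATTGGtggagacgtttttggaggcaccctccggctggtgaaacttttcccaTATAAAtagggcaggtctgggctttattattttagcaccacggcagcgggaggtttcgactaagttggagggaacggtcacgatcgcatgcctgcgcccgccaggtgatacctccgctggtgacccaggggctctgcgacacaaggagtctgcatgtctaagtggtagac
Col11a1, chr2:204508886-204509135, plus strand: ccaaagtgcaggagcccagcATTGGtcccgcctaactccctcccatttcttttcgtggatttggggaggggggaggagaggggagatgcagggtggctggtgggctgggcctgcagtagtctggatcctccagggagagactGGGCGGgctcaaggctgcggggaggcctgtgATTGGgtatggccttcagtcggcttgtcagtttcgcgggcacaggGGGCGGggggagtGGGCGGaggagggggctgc
Col5a1, chr3:31606630-31606879, plus strand: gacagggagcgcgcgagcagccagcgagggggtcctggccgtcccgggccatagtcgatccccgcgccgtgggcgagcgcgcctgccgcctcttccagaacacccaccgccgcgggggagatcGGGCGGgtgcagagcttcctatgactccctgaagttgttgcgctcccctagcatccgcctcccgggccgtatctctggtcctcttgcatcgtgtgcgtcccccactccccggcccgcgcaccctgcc
Col5a2, chr9:55090152-55090401, minus strand: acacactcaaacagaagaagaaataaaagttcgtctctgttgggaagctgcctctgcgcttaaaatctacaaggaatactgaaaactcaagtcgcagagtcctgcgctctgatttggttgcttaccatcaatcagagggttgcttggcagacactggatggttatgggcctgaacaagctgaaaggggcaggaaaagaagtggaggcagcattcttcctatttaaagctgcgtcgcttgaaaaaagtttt
The Col1a2 window held 1 CCAAT on the reverse strand and 1 TATAAA at position -170 from the start. The Col11a1 window held 2 CCAAT, at positions -230 and -77, and 3 GGGCGG. The Col5a1 window held 1 GGGCGG, and none of these letter strings was in the Col5a2 window. Of 33469 rat promoter windows of this length, 34.0% held CCAAT, 12.9% TATAAA and 30.5% GGGCGG, so each string is common. The matches describe the letters in these windows.

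Cells were assigned by markers that include no collagen gene, and the groups are called gates. The fibroblast gate (markers such as Dcn, Lum and Pdgfra) held 43 distraction and 12 sham cells, and the osteoblast gate (Ibsp, Bglap, Alpl) 11 and 19. The mural gate, for the contractile cells that wrap small vessels (Rgs5, Abcc9, Myh11), held 7 and 7. The endothelial gate, for the lining of vessels (Cdh5, Kdr, Tie1), held 23 and 17, and Pecam1 was not analysed here. Some markers were shared between gates. Dcn was higher in the osteoblast gate (2835 and 2810 CPM, counts per 1000000) than in the fibroblast gate (1103 and 1515 CPM), and Alpl was 541 and 601 CPM in fibroblasts and 656 and 483 CPM in osteoblasts. Runx2, of the osteoblast list, was 92.7 and 132 CPM in fibroblasts and 106 and 49.0 CPM in osteoblasts. Lum was 2831 and 2694 CPM in fibroblasts and 1832 and 1226 CPM in osteoblasts. The 9 fibroblast markers summed to 5314 and 5760 CPM in fibroblasts and 4706 and 4092 CPM in osteoblasts. Bglap differed widely, at 46423 and 40676 CPM in osteoblasts and 7.56 and 24.1 CPM in fibroblasts. Dpt had 872 and 734 CPM in fibroblasts and 0 counts in osteoblasts. Of the osteoblast markers, Sp7, a transcription factor of the lineage, was at 0 in the osteoblast gate of both libraries. Blood gates (B cells, neutrophils, erythroid cells and monocytes) held 3121 distraction and 4001 sham cells in all. The cells kept totalled 31202493 UMIs (counted molecules) after distraction and 29488955 after sham operation, and 22 cell barcodes occurred in both libraries among 4889 and 5351 deposited. Median UMIs per cell ran from 5164 to 12428 in the stromal gates, and were 3977 and 3112 in the blood gates. A cell with 3 or more of 10 general blood-cell markers was called mixed and left out. This rule took 12 and 3 cells from the fibroblast gate and 20 and 23 from the osteoblast gate. The endothelial gate lost 15 and 7 cells, and the mural gate 0 in both libraries. In the cells left in the stromal gates, 8 neutrophil markers summed to between 382 and 1896 CPM, and 6 cartilage markers to at most 325 CPM. Their part in the results was not tested. Mixed cells mattered for the collagens, since between 12.9% and 41.2% of a gene's UMIs in a library lay in mixed cells of all gates.

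The collagens made up a large share of the RNA of osteoblasts. Together the 9 genes took 20.7% of the osteoblast gate's UMIs in distraction and 20.5% in sham. They took 8.97% and 8.28% in the fibroblast gate, 1.17% and 0.867% in the mural gate, and 0.0292% and 0.0526% in the endothelial gate. In the blood gates the share was 0.00602% and 0.0128%, which is taken as the level of RNA free in the suspension. The order osteoblast, fibroblast, mural, endothelial was found in both libraries at the settings used here. The osteoblast gate stood 2.31-fold above the fibroblast gate after distraction (95% interval 2.27 to 2.34) and 2.47-fold after sham operation (2.41 to 2.53). All intervals given here are exact, are at the 95% level, and cover counting error only, not differences between cells, animals or dissections. The value of the osteoblast gate depended on leaving out mixed cells. With them kept, the distraction osteoblast gate was at 0.584-fold of the fibroblast gate, which turns the order of the 2 gates in that library. The 20 mixed cells of the distraction osteoblast gate held 2.22% of UMIs in the 9 collagens, with 8383 CPM in 8 neutrophil markers, and the 23 of the sham gate held 5.50%, with 13657 CPM. The part of the blood-cell RNA in these shares was not tested.

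**Figure D1:**
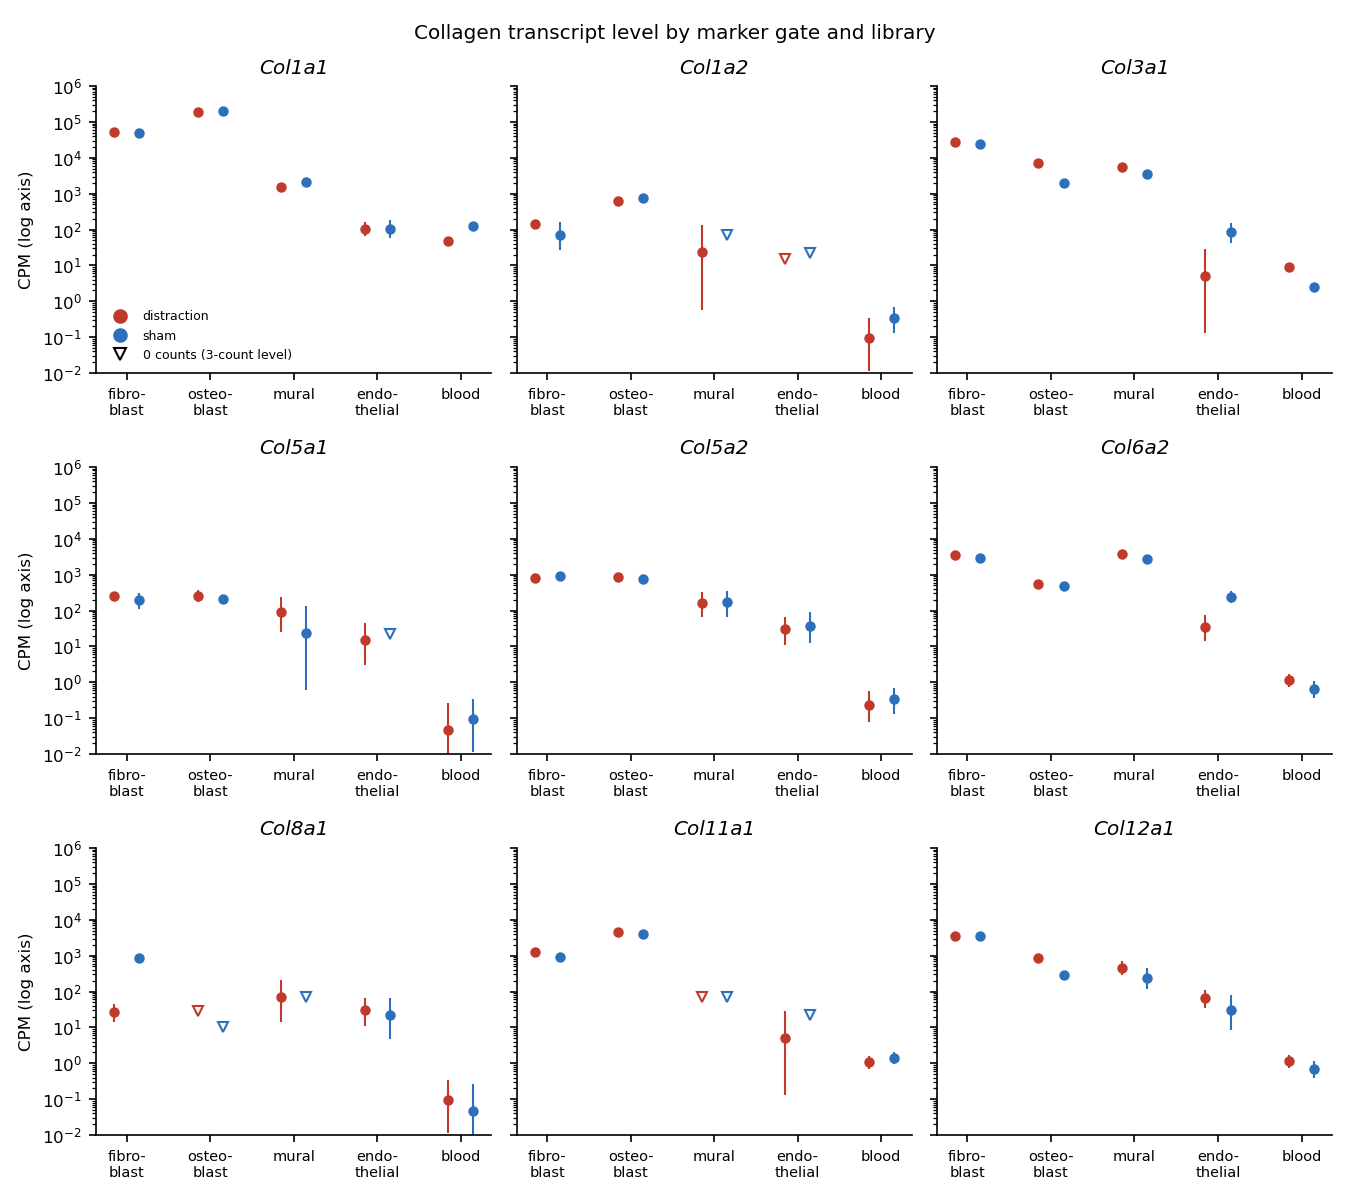
Level of each collagen in CPM (counts per 1000000 UMIs of the gate, log axis) in the 4 stromal gates and in blood cells, for the distraction (red) and sham (blue) library; bars are exact 95% Poisson intervals and open triangles mark 0 counts, drawn at the level of 3 counts. Col1a1, Col1a2 and Col11a1 are highest in osteoblasts, Col3a1 and Col12a1 in fibroblasts, and every blood level other than Col1a1 and Col3a1 lies under 2 CPM.

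Col1a1, the main chain of type I collagen, was the gene with the highest CPM of the 9 in fibroblasts and osteoblasts of both libraries. Its level was 52563 CPM in distraction and 49641 in sham fibroblasts, and 191981 and 196248 CPM in osteoblasts. In mural cells it was 1490 and 2070 CPM, and in endothelial cells 106 and 107 CPM. The gates kept this order in both libraries, and the osteoblast gate was 3.65-fold (3.59 to 3.72) and 3.95-fold (3.83 to 4.08) above the fibroblast gate. Every cell of both gates held Col1a1. Per-cell levels ran from 6961 to 118997 CPM in distraction fibroblasts (median 44076) and from 11449 to 109032 in sham fibroblasts (median 23806). In osteoblasts they ran from 81367 to 361986 CPM (median 156794) and from 36476 to 425865 (median 201407). The cells of the 2 gates thus overlapped at the edges, and the medians lay far apart. With mixed cells kept, the distraction osteoblast gate was no longer above the fibroblast gate for Col1a1 (log2 ratio -0.11), while the sham ratio stayed at 3.0-fold or more under all 12 alternative settings.

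Col1a2, the partner chain of type I collagen, was counted far more rarely, with 242 distraction and 413 sham UMIs over all kept cells. UMI counts are not scaled by length, and the sources used here do not say how well the annotation covered each gene's 3′ end, so levels were not ranked between genes on a molar scale. Col1a2 had 138 and 72.2 CPM in fibroblasts, 636 and 760 CPM in osteoblasts, and 0 counts in endothelial cells of both libraries. The osteoblast gate was 4.61-fold (3.25 to 6.52) and 10.5-fold (4.76 to 29.0) above the fibroblast gate, and the sham value rests on 6 fibroblast UMIs. Mural cells held 1 UMI in the distraction library and none in the sham library. Keeping mixed cells left the distraction ratio of osteoblasts to fibroblasts at 0.48 on the log2 scale, and the call was lost. An ID that the tables used here do not pair with a gene, NEWGENE_621351, had 60.5 and 48.1 CPM in fibroblasts and 588 and 459 CPM in osteoblasts. Whether it holds reads of a collagen gene could not be settled, so the Col1a2 levels may be incomplete.

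Col3a1, the chain of type III collagen, had the opposite order of fibroblasts and osteoblasts. Its level was 27756 and 23943 CPM in fibroblasts and 7146 and 1927 CPM in osteoblasts, in the distraction and the sham library. The osteoblast gate was 3.88-fold (3.61 to 4.19) and 12.4-fold (11.3 to 13.7) below the fibroblast gate, and both calls held under all 12 alternatives. All fibroblasts held Col3a1, from 7967 to 54380 CPM in distraction and from 9057 to 61478 in sham cells. In the osteoblast gate, 4 of 11 and 10 of 19 cells held any, and 1 cell carried 65.7% and 64.2% of the gate's counts. The osteoblast level of Col3a1 is thus that of a few cells, and the median cell had 0 and 27.3 CPM. In the osteoblast gate, 10 of 11 and 17 of 19 cells also held at least 2 markers of another stromal gate, against 19 of 43 and 5 of 12 fibroblasts. The part of those markers' cells in the Col3a1 level was not tested. Mural cells all held Col3a1, at 5679 and 3515 CPM, or 4.89-fold (4.31 to 5.57) and 6.81-fold (5.76 to 8.11) below fibroblasts.

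The balance of Col1a1 and Col3a1 differed between fibroblasts, osteoblasts and mural cells. Fibroblasts held 1.89 (1.86 to 1.93) Col1a1 UMIs per Col3a1 UMI in distraction and 2.07 (1.96 to 2.19) in sham. Osteoblasts held 26.9 and 102, and mural cells 0.262 and 0.589. Endothelial cells held 21 (3.38 to 868) and 1.27 (0.537 to 3.10), from 1 and 11 Col3a1 UMIs, with intervals that reach into those of other gates. Over the alternative settings the osteoblast value ranged from 17.0 to 117 in distraction and from 41.4 to 284 in sham, and that of mural cells from 0.221 to 0.406 and from 0.220 to 0.589. The fibroblast value ranged from 1.57 to 1.90 and from 1.39 to 2.5, below every osteoblast value and above every mural value. The fibroblast intervals of the libraries just missed each other, while those of osteoblasts and mural cells lay further apart. In mural cells 1 sham cell held 66 of the 86 Col1a1 UMIs. Without the highest cell of each gene the mural values were 0.246 in distraction and 0.220 in sham, the reverse order. The order was also reversed with 4 markers needed (0.291 and 0.253) and with each cell thinned to 3000 UMIs (0.406 and 0.352). No order of the libraries is therefore read for mural cells. Col1a1 exceeded Col3a1 in 34 of 43 and 11 of 12 fibroblasts, in all osteoblasts, and in 0 of 7 and 2 of 7 mural cells.

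**Figure D2:**
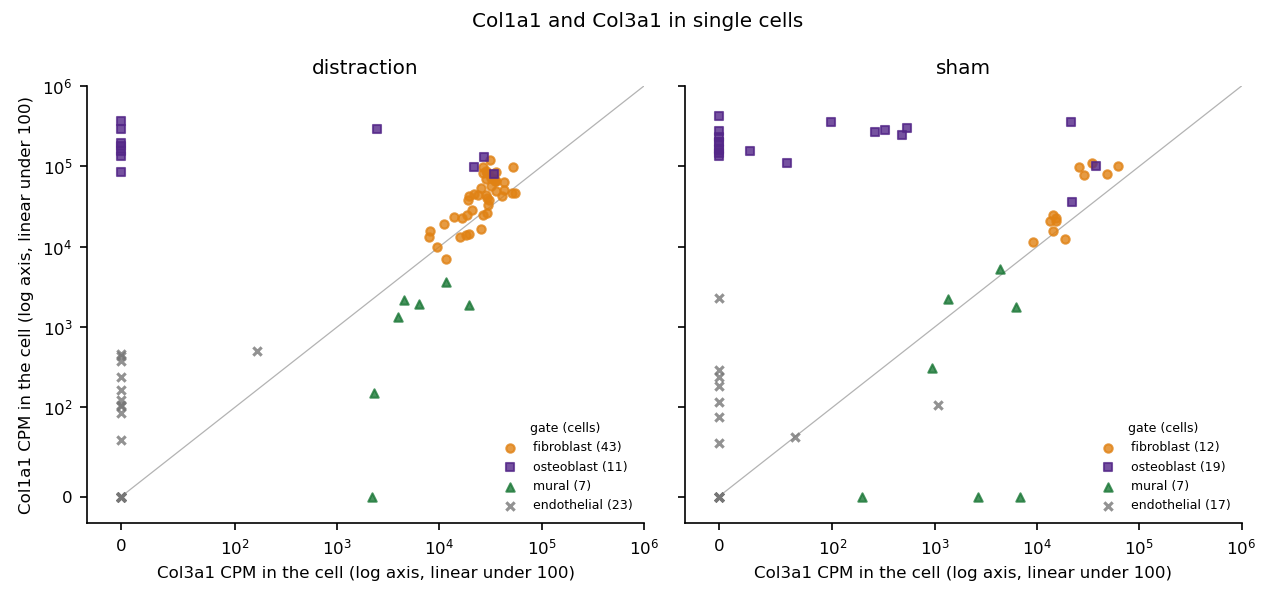
Col1a1 against Col3a1 in single cells, in CPM of the cell (both axes logarithmic above 100 and linear below), by library; each symbol is 1 cell and the line marks equal levels. Fibroblasts lie near or above the line, osteoblasts lie high with many at 0 Col3a1, and mural cells lie on or below the line with 2 exceptions in the sham library.

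Col5a1 and Col5a2, 2 of the chains of type V collagen, had similar summed levels in fibroblasts and osteoblasts at the settings used here. Col5a1 had 255 and 192 CPM in fibroblasts and 260 and 214 CPM in osteoblasts, with osteoblast to fibroblast ratios of 1.02 (0.648 to 1.55) and 1.11 (0.632 to 2.06). Col5a2 had 804 and 938 CPM in fibroblasts and 858 and 774 CPM in osteoblasts, with ratios of 1.07 (0.840 to 1.34) and 0.825 (0.635 to 1.08). No call was made for either gene in either library, and the intervals leave room for a difference of up to 2.06-fold for Col5a1. The absence of a call depended on the settings. Under 4 of 12 alternatives Col5a2 was called lower in sham osteoblasts, down to 0.125-fold. With mixed cells kept, Col5a1 (0.303-fold) and Col5a2 (0.342-fold) were called lower in distraction osteoblasts. In mural cells Col5a2 had 163 and 169 CPM and was called lower than in fibroblasts of both libraries, by 4.93-fold and 5.57-fold. Mural Col5a1 had 4 and 1 UMIs, with a lower call in the distraction library that was lost under 4 of 12 alternatives, and too few counts for a call in the sham library.

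Col11a1, a chain of type XI collagen, followed the pattern of type I. Its level was 1299 and 890 CPM in fibroblasts and 4638 and 3935 CPM in osteoblasts, with 0 counts in mural cells of both libraries. The osteoblast gate was 3.57-fold (3.17 to 4.02) and 4.42-fold (3.49 to 5.67) above fibroblasts. Col11a1 was present in 36 of 43 and 9 of 12 fibroblasts and in 10 of 11 and 18 of 19 osteoblasts, and after thinning in 27 of 41 and 9 of 12 fibroblasts and 8 of 8 and 15 of 16 osteoblasts. Against a floor of 3 counts, mural cells were at least 18.6-fold and at least 12.3-fold lower than fibroblasts. With mixed cells kept, the distraction ratio of osteoblasts to fibroblasts was 0.24 on the log2 scale and was not called.

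Col6a2, a chain of type VI collagen, had mural cells level with fibroblasts. Its level was 3438 and 2826 CPM in fibroblasts, 3678 and 2648 CPM in mural cells, and 550 and 473 CPM in osteoblasts. The mural to fibroblast ratio was 1.07 (0.903 to 1.26) and 0.937 (0.740 to 1.18), and no call was made. All 7 distraction and 6 of 7 sham mural cells held it. Osteoblasts were 6.25-fold (4.81 to 8.29) and 5.97-fold (4.81 to 7.44) below fibroblasts, although 49.1% and 59.3% of their counts lay in 1 cell.

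Col12a1, the type XII chain on fibril surfaces, was highest in fibroblasts, at 3444 and 3463 CPM. Osteoblasts had 858 and 298 CPM, 4.01-fold (3.24 to 5.02) and 11.6-fold (9.10 to 15.0) below fibroblasts. A UMI of it was found in 4 of 11 and 3 of 19 osteoblasts and in 42 of 43 and 11 of 12 fibroblasts. After thinning to 3000 UMIs these were 3 of 8 and 3 of 16 osteoblasts and 41 of 41 and 10 of 12 fibroblasts. Mural cells had 466 and 241 CPM, from 20 and 10 UMIs.

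Col8a1, the type VIII chain, was sparse in each gate. Fibroblasts had 26.5 CPM in the distraction library, from 14 UMIs in 7 of 43 cells, and 842 CPM in the sham library, from 70 UMIs in 3 of 12 cells. One sham fibroblast carried 85.7% of those UMIs. Osteoblasts held none in either library. Endothelial cells had 30.2 and 22.8 CPM, from 6 and 3 UMIs, and mural cells held 3 UMIs in the distraction library and none in the sham library.

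Set against all genes, these gate differences divide as follows. Between osteoblasts and fibroblasts of the distraction library, 3 of the 8 members past 30 counts were called higher (Col1a1, Col1a2, Col11a1), where 4.45% of all genes tested were. Another 3 were called lower (Col3a1, Col6a2, Col12a1), where 36.4% of all genes were. In the sham library the same 3 of 9 were called higher, beside 13.7% of all genes. The same 3 and Col8a1 were called lower, beside 35.5%, with Col8a1 at least 80.1-fold lower on the strength of the 1 sham fibroblast. Leaving out cells with markers of another stromal gate left 1 distraction osteoblast, and the calls of Col1a2, Col6a2 and Col12a1 in that library were then lost. The median log2 ratio was 0.06 and -0.28 over the members and -0.88 and -0.45 over all genes tested. Between mural cells and fibroblasts, 7 of 8 members were called lower after distraction and 6 of 7 after sham operation. Of all genes, 10% and 21.7% were, and 9.99% and 20.1% were called higher, as no member was.

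**Figure D3:**
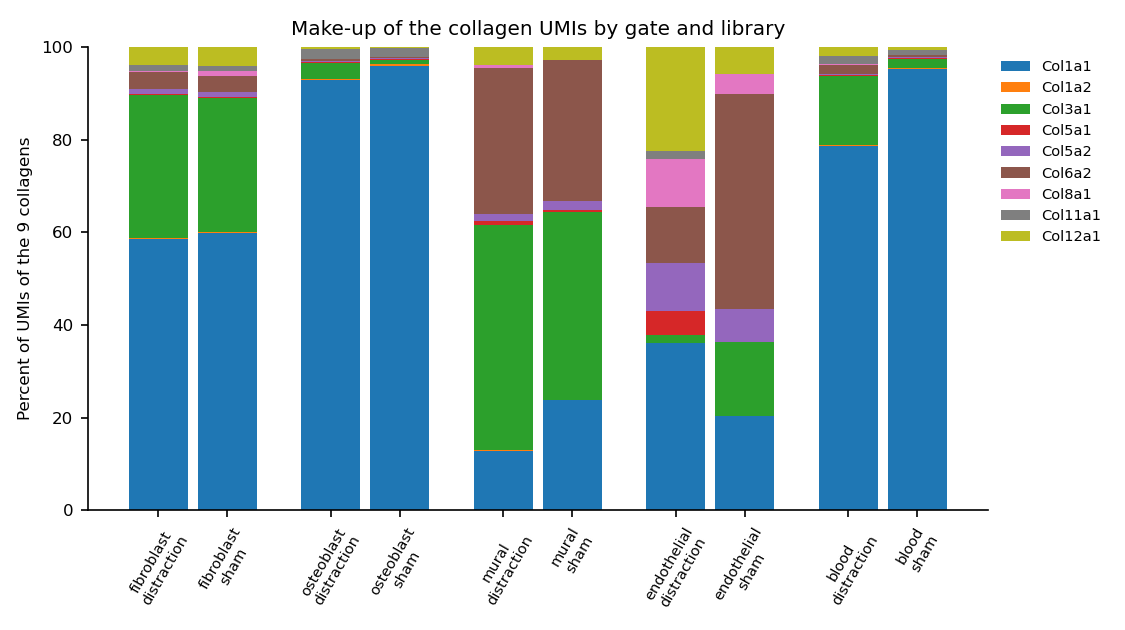
Share of the UMIs of the 9 collagens taken by each gene (percent, stacked bars) in the 4 stromal gates and in blood cells, by library. Col1a1 takes 92.8% and 95.9% in osteoblasts and 58.6% and 59.9% in fibroblasts, while Col3a1 and Col6a2 together fill most of the mural bars.

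The next comparison was between distraction and sham within a gate, the contrast of the study's design, whose title asks what sutural fibroblasts do under mechanical strain. In fibroblasts the 9 collagens, summed over cells, were 1.08-fold (1.06 to 1.11) as high after distraction. The median fibroblast had 7.92% of its UMIs in them after distraction and 4.71% after sham operation. A gene was called when its ratio reached 1.5-fold either way with its interval on 1 side of 1. Of 9 members, none was called higher, beside 6.7% of 2894 genes tested, and 1 was called lower, beside 7.53%. That gene was Col8a1, 31.8-fold (17.7 to 61.1) lower, which rests on the single sham cell named above. Without the highest cell of each library the ratio was 0.129 on too few counts for a call. Col1a1 was at 1.06 (1.02 to 1.09), Col3a1 at 1.16 (1.11 to 1.22) and Col12a1 at 0.994 (0.878 to 1.13). Col11a1 was at 1.46 (1.15 to 1.88), just under the 1.5-fold limit, and Col6a2 at 1.22 (1.06 to 1.40). Over the 12 alternatives Col11a1 ranged from 0.762-fold to 1.69-fold and was called higher under 3. Col1a2 was at 1.91 with an interval of 0.838 to 5.38, and Col5a1 at 1.33 (0.788 to 2.39). Keeping mixed cells gave 3 members called higher, and leaving out cells with markers of another stromal gate, an alternative added after seeing the data, also gave 3. Both alternatives gave lower calls as well, with Col8a1 among them. The share of all genes called was not computed under these alternatives, so no excess of members is read from these counts. The fibroblast values depend on which cells are gated. The 9 collagens together ranged from 0.907-fold to 1.52-fold over the 12 alternatives. The spread between cells within 1 library was far wider than the ratio, since the 9 collagens took from 1.86% to 16.8% of a distraction fibroblast's UMIs and from 2.34% to 17.1% of a sham fibroblast's.

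In osteoblasts the 9 collagens together were at a ratio of 1.01 (0.995 to 1.03). Col1a1 was at 0.978 (0.963 to 0.994), Col1a2 at 0.837 (0.626 to 1.11) and Col11a1 at 1.18 (1.06 to 1.31), none of them called. Of 8 members past 30 counts, 2 were called higher, beside 12.9% of 1316 genes, and none was called lower, beside 16.2%. These were Col3a1 at 3.71-fold (3.32 to 4.15) and Col12a1 at 2.88-fold (2.12 to 3.93). The 2 calls are not separate, since the same few cells held most UMIs of both genes. In distraction these cells held 487, 100 and 119 of 741 Col3a1 UMIs and 38, 22 and 26 of 89 Col12a1 UMIs. In sham they held 353, 89 and 82 of 550 and 76, 8 and 1 of 85. For Col3a1, 4 of 11 distraction and 10 of 19 sham cells held any, but 4 of 8 and 5 of 16 once cells were thinned to 3000 UMIs, so no order is read from these shares. For Col12a1, 1 sham cell carried 89.4% of the counts, and without the highest cell of each library the ratio was 17.5-fold. After thinning, Col3a1 had 10667 CPM in distraction and 5333 CPM in sham osteoblasts, a smaller ratio, and its lowest ratio over the alternatives was 1.35-fold. The makeup of the gate also differed between the libraries. Dmp1 had 183 and 1958 CPM and Phex 38.6 and 610 CPM, both genes of late osteoblasts and osteocytes, and Ibsp had 1186 and 2474 CPM. The part of these differences in the collagen ratios was not tested. Neither call was made when 4 markers were needed (7 and 15 cells), and with mixed cells kept Col12a1 was at a log2 ratio of -0.0075. With mixed cells kept, 6 members were called lower and the 9 together fell to 0.445-fold, the lowest value of the alternatives. The share of all genes called lower under that setting was not computed.

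In mural cells the 9 collagens together were 1.35-fold (1.17 to 1.54) as high after distraction. Of 4 members past 30 counts, Col3a1 was called higher at 1.62-fold (1.31 to 2.0), beside 15.9% of 460 genes, and none was called lower, beside 17.2%. Per-cell Col3a1 ran from 2193 to 19496 CPM (median 4528) in distraction and from 194 to 6778 CPM (median 2668) in sham mural cells, so the 2 sets of 7 cells overlapped. Col6a2 was at 1.39 (1.08 to 1.79) and Col1a1 at 0.719 (0.512 to 1.01), where 1 sham cell held 76.7% of the counts. A list of 6 marrow-stroma genes (Lepr, Cxcl12, Kitlg, Adipoq, Foxc1, Ebf3) summed to 1001 CPM in distraction and 5393 CPM in sham mural cells, with 4 and 5 of the 6 detected. Its part in these ratios was not tested. Leaving out cells with markers of another stromal gate left 2 and 6 mural cells and a Col3a1 ratio of 1.03.

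In endothelial cells the 9 collagens gave 58 and 69 UMIs in all. Of 2 members past 30 counts, Col6a2 was called 6.92-fold (3.0 to 18.6) lower after distraction, beside 12.5% of 1782 genes, and none was called higher, beside 7.58%. Its sham counts came from 2 of 17 cells, 1 of them with 68.8%, and without the highest cell no call remained. Markers of mural cells were also found in the endothelial gate. The 8 markers of the mural list summed to 146 CPM (3 of 8 detected) in distraction and 312 CPM (6 of 8) in sham endothelial cells. Single markers went both ways. In distraction and sham, Rgs5 had 0 and 12 UMIs, Abcc9 7 and 20, Cspg4 0 and 2 and Myh11 0 and 1. Acta2 had 19 and 5 and Kcnj8 3 and 1. The part of these markers' cells in the Col6a2 ratio was not tested. Col3a1 had 90.9% of 11 sham UMIs in 1 cell, the cell that also held the most Col6a2, and 1 UMI in the distraction library.

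**Figure D4:**
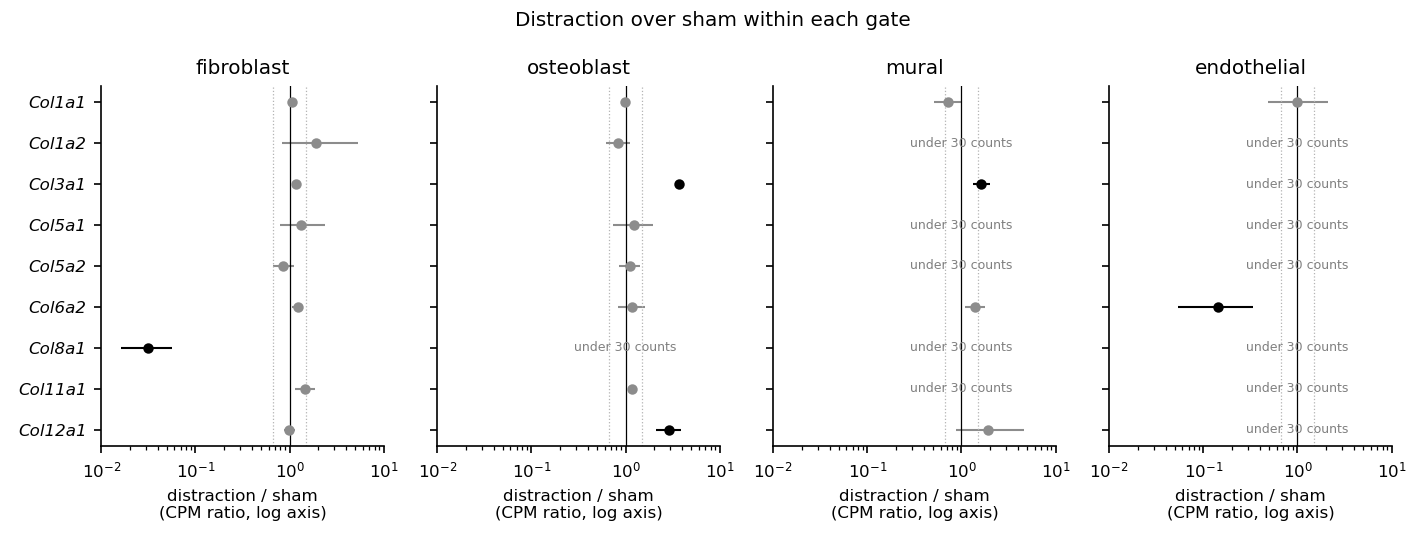
Ratio of distraction to sham (CPM, log axis) for each collagen within the 4 stromal gates, with exact 95% intervals for counting error; dotted lines mark 1.5-fold either way, black points were called and grey points were not, and genes with under 30 counts have no point. Of the fibroblast points only Col8a1 is black, and it rests on 1 sham cell; Col1a2 lies at 1.91 with a wide interval.

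Blood cells served to measure free RNA. Col1a1 had 47.4 CPM in distraction and 122 CPM in sham blood cells, found in 24.4% and 37.5% of them at a median depth of 3977 and 3112 UMIs. Col3a1 had 9.02 and 2.42 CPM, and the other members lay between 0.0475 and 1.42 CPM. The libraries differed in opposite directions for the 2 genes, with Col1a1 2.58-fold (2.40 to 2.78) lower and Col3a1 3.72-fold (2.72 to 5.18) higher in distraction. Col1a1 differed between types of blood cell in the sham library, from 83.3 CPM (61.6 to 110) in monocytes to 140 CPM (124 to 157) in erythroid cells. The Col1a1 per Col3a1 of the types had overlapping intervals within a library. It was between 4.41 and 8.20 in distraction and between 24.5 and 57.5 in sham cells, beside 3.40 and 23.8 over all cells of a library. Over all cells, 37.5% of Col1a1 UMIs of the distraction library and 4.21% of the sham library lay in gated fibroblasts, and 26.9% and 57.1% in gated osteoblasts. Endothelial Col1a1 was 2.23-fold (1.38 to 3.43) above blood after distraction and 0.873-fold (0.476 to 1.47) after sham operation, so only the distraction value met the rule for a call. Of 4 members past 30 counts in each library, 3 were called above blood in distraction and 2 in sham endothelial cells. Of all genes tested, 1464 of 10716 and 1259 of 10797 were. These levels rest on few endothelial UMIs. Mural Col1a1 was 31.5-fold and 16.9-fold above blood, and mural Col3a1 630-fold and 1452-fold.

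**Figure D5:**
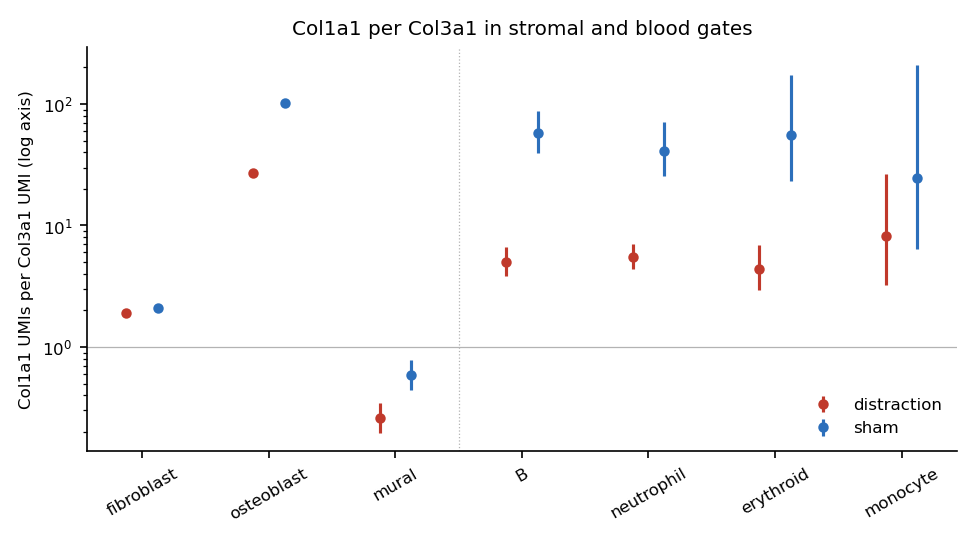
Col1a1 UMIs per Col3a1 UMI (log axis) in 3 stromal gates and 4 blood gates, by library, with exact 95% intervals. The blood gates of a library lie together, at 4.41 to 8.20 in distraction and 24.5 to 57.5 in sham, while the 3 stromal gates shown lie far apart; the endothelial gate, with 1 and 11 Col3a1 UMIs, is not drawn.

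Single fibroblasts were then compared for how the members went together. Distraction fibroblasts held a median of 8 of the 9 genes and sham fibroblasts 6.5, at median depths of 10939 and 6913 UMIs. Over the 43 distraction fibroblasts, Spearman's rho of per-cell levels was highest for Col1a1 with Col3a1 (0.72), Col11a1 with Col12a1 (0.69) and Col1a1 with Col1a2 (0.64). It was lowest for Col6a2 with Col11a1 (-0.12) and Col3a1 with Col11a1 (0.01). Over 19 sham osteoblasts, rho of Col1a1 with Col3a1 was 0.01. Cells of 1 library share its preparation and differ in depth, so these values describe the cells and carry no test.

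Likeness to other genes was measured by Pearson's r of log2(CPM + 10) over the 8 points of 4 gates and 2 libraries, among 2993 genes. The points share libraries and differ in depth. Nearest to Col1a1 were Serpinf1 (0.99), which encodes the secreted protein PEDF, and Pcolce (0.99), an enhancer of procollagen processing. Nearest to Col11a1 were Lox (0.98), the enzyme that starts collagen cross-links, and Sdf4 (0.98). Nearest to Col12a1 were Aspn (0.98), a small proteoglycan, and Mmp14 (0.97), a membrane-bound collagenase. Col6a2 was nearest to AABR07068316.1 (0.99), an ID that the tables used here do not pair with a gene, and to Col6a1 (0.97), its partner chain. Col3a1 was nearest to Hk2 (0.98) and Lrp1 (0.97), Col5a1 to Efemp2 (0.99) and Lpar1 (0.96), and Col5a2 to Ctsh (0.99) and Ppic (0.99). Col1a2 was nearest to NEWGENE_621351 (0.99), likewise not paired with a gene, and RGD1305645 (0.98), and Col8a1 to Srsf7 (0.92) and Secisbp2l (0.92). The Col8a1 values rest mainly on the sham fibroblast point, where 1 cell held 60 of 70 UMIs. Among the members themselves, r was highest for Col1a1 with Col5a2 (0.98) and Col1a2 with Col11a1 (0.94).

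The rest of the collagen pathway was read from 3 lists. Of 34 other collagen genes, 31 were in the tables and 7 passed 30 counts in fibroblasts. Col5a3 was called 1.73-fold (1.0 to 3.24) and Col18a1 6.76-fold (1.15 to 273) higher after distraction, the latter against 1 sham count. Col16a1 was called 1.68-fold (1.38 to 2.04) lower. Of all genes, 6.7% were called higher and 7.53% lower, and under the alternatives 0 to 3 of these collagens were called higher and 0 or 1 lower. The 3 were by the mean of per-cell CPM, where a call needed no interval. Some other collagens were high in other gates. Col4a1, of basement membranes, had 6796 and 5128 CPM in mural cells and 3036 and 5735 CPM in endothelial cells, beside 900 and 962 CPM in fibroblasts and 0 and 14.0 CPM in osteoblasts. Col11a2, a further chain of type XI collagen, had 2430 and 3808 CPM in osteoblasts and 13.2 and 0 CPM in fibroblasts. Col5a3 had 1303 and 433 CPM in mural cells, 291 and 168 CPM in fibroblasts and 0 counts in osteoblasts.

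Of 28 genes for making collagen, 25 were in the tables and 19 passed 30 counts in fibroblasts. Of these 19, 1 was called higher and 1 lower after distraction, beside 6.7% and 7.53% of all genes, with a median log2 ratio of 0.37, beside 0.06 over all genes tested. Under the alternatives 0 to 3 were called higher and 1 or 2 lower. Ppib, a prolyl isomerase of the endoplasmic reticulum, was 1.70-fold (1.07 to 2.84) higher. Adamts2, the protease that removes the procollagen N-end, was 2.28-fold (1.60 to 3.21) lower, at 248 and 565 CPM. Serpinh1, the collagen chaperone, had 1611 and 1178 CPM in fibroblasts and 1659 and 1815 CPM in osteoblasts. Sparc, a collagen-binding matrix protein, had 32526 and 34381 CPM in fibroblasts and 76935 and 92224 CPM in osteoblasts. Pcolce had 711 and 493 CPM in fibroblasts and 2266 and 1867 in osteoblasts. Lox had 1454 and 1142 CPM in fibroblasts and 955 and 1475 in osteoblasts, and P4hb, a subunit of the prolyl hydroxylase, 1121 and 962 CPM in fibroblasts.

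Of 14 genes for binding or breaking down collagen, 8 passed 30 counts in fibroblasts. Of these, 2 were called higher after distraction, beside 6.7% of all genes, and none lower, beside 7.53%. Under the alternatives 1 to 3 were called higher and 0 or 1 lower, the lower call by the mean of per-cell CPM, where a call needed no interval. Ctsk, a collagen-cleaving cathepsin, was 1.53-fold (1.19 to 2.01) higher, at 1216 and 794 CPM. Mmp13, a collagenase, had 73.8 CPM in distraction and 0 counts in sham fibroblasts. It had 1781 CPM in sham mural cells, from 74 UMIs in a gate of 7 cells, beside 0 counts in distraction mural cells. How these UMIs spread over the 7 cells is not given here, so no difference between mural cells of the libraries is read from them. Mmp2, a gelatinase, had 2888 and 3054 CPM and Mmp14 1265 and 1527 CPM in fibroblasts, neither called. Itgb1, the beta chain of the collagen-binding integrins, had 1093 and 962 CPM in fibroblasts and 2165 and 1324 CPM in mural cells.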

How the data were processed

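Per the file headers, the authors deposited raw counts of molecules (UMIs) for each gene and cell, made by BD WTA Rhapsody Analysis Pipeline 1.5.1. The submitters' processing notes name Rnor_6.0 and Seurat 3.6. The sources used here give neither the annotation release nor the rule for calling cells, and RNA was captured by its poly-A tail.

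Cells with at least 500 UMIs, 200 genes and under 25% mitochondrial UMIs were kept, 4037 of 4889 in the distraction and 5183 of 5351 in the sham library. A gate needed 3 markers with 5 UMIs and the largest share of its list. Cells with 3 of 10 general blood markers were left out as mixed, no doublet caller was run, and blood gates took cells with under 2 markers of each stromal class. UMIs were summed per gate and library, scaled to CPM and given exact Poisson intervals. Ratios have exact conditional binomial intervals and shares of cells exact Clopper-Pearson ones, all at 95%. A call needs 1.5-fold, an interval on 1 side of 1 and 30 counts over both. Lower bounds use a floor of 3 counts per gate and library. The ratio calculation was tested on simulated data. Other genes were named by rule: per list, the 5 with the highest level and the 4 with the largest called ratio in fibroblasts at 50 CPM or more, and the 2 genes most like each member at 100 CPM or more. The members, markers and lists were chosen with earlier results of these data known. Python 3.11.15, numpy 2.4.6, scipy 1.17.1, pandas 2.3.3 and matplotlib 3.10.9 were used. Promoters are RefSeq's for GRCr8, another assembly than that of the counts.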

Additional observations from a re-analysis of the deposited data

How the results depend on the processing

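No paired analysis was possible because each group has 1 library. Member ratios between libraries and of osteoblasts and mural cells to fibroblasts, the Col1a1 per Col3a1 balance and the calls of the 3 other lists were recomputed under 11 other settings and 1 added after seeing the data, which left out cells with 2 or more markers of another stromal gate. Blood levels, correlations and likeness were not. The share of all genes called was not recomputed either, so counts of calls under the alternatives have no background beside them. Of 31 called member ratios, 15 kept their call under every alternative and 4 changed sign under at least 1. The number of members called between distraction and sham was 1 in fibroblasts. It became 2 by the mean of per-cell CPM, 4 with mixed cells kept, 2 with 4 markers needed and 5 under the added alternative. In osteoblasts 2 members were called, and 6 with mixed cells kept, 0 with 4 markers and 0 under the added alternative. In mural cells 1 was called, and 2 by the mean of per-cell CPM, 2 with 4 markers, 3 after thinning each cell to 3000 UMIs and 0 under the added alternative. In endothelial cells 1 was called, and 2 by the mean of per-cell CPM, 0 without the highest cell, 0 after thinning and 0 under the added alternative. Between osteoblasts and fibroblasts of the distraction library 6 were called, and 3 under the added alternative, which left 1 distraction and 2 sham osteoblasts and 2 distraction mural cells. The signs that changed were log2 ratios of -0.0075 for Col12a1 between libraries in osteoblasts and -0.11 for Col1a1 between osteoblasts and fibroblasts of the distraction library, both with mixed cells kept. Under the added alternative they were 0.32 for Col12a1 between osteoblasts and fibroblasts and 1.0 for Col1a2 between mural cells and fibroblasts, in the distraction library. Thinning is a random draw: for Col12a1 in osteoblasts over fibroblasts the draw used here gave a log2 ratio of -0.50 in the distraction library with no call, and the separate draw behind the shares of cells gave 1417 CPM in osteoblasts and 2878 CPM in fibroblasts. Thinning left 8 distraction osteoblasts and 41 distraction fibroblasts, and the cause of the weaker ratio was not tested. Some ratios of sparse genes had no value under an alternative that left 0 counts. The 9 collagens together, osteoblasts over fibroblasts, ranged from 0.584-fold (mixed cells kept) to 2.65-fold in the distraction library and from 1.89-fold to 3.13-fold in the sham library. The gates held 7 to 43 cells, and the intervals do not cover the spread between those cells.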
